A study of Mus musculus with 9 samples.

Results

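The 42 genes described here encode the proteins that copy DNA and divide the chromosomes, and their ribosome footprints were counted in mouse preadipocytes before and during beige adipocyte differentiation. They were taken by gene symbol from the 55359 genes of the deposited count table, and every symbol was found once. A total of 25 are grouped here as S phase genes, although origins are licensed in G1. They cover origin licensing, helicase activation, the replication fork, deoxynucleotide supply and the E2F factors. The other 17 are grouped as mitosis genes (FOXM1, CDK1 and its cyclins, mitotic kinases, the spindle checkpoint, spindle motors and chromosome proteins). This division follows textbook roles, though the members and their roles were chosen with earlier results of these data known. All 42 passed the filter on low counts, along with 14714 genes in all.

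Cells were adipocyte precursors of inguinal white adipose tissue (iWAT), a subcutaneous fat depot, grown in culture. The day 0 libraries came from cells with no treatment. The day 4 and day 8 libraries came from cells given dexamethasone, 3-isobutyl-1-methylxanthine, indomethacin, insulin, 3,3′,5-triiodo-L-thyronine and rosiglitazone for 2 days, and then a maintenance medium that lacked the first 3 of these agents. Each group had 3 libraries, for 9 in all, and the labels name no age, sex or strain of the mice and do not say whether replicates were separate animals, cultures or preparations. The p-values therefore measure only the spread between these libraries, which may be technical. Footprints are the mRNA pieces, about as long as a ribosome covers, that survive RNase digestion, so a count combines how much of an mRNA is present with how many ribosomes sit on it.

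DNA replication begins when the origin recognition complex (ORC) with CDC6 and CDT1 loads the MCM2 to MCM7 helicase in G1, after which CDC45 and GINS switch the helicase on and polymerases copy the strands. E2F factors drive many of these genes when the retinoblastoma protein lets go of them. FOXM1 and the B-MYB complex drive the mitotic genes later in the cycle, many through a promoter element called CHR (cell cycle genes homology region), and the DREAM complex represses both sets in resting cells. Preadipocyte cultures made to differentiate can pass through a few divisions early on and leave the cell cycle as they become fat cells.

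Library totals ran from 30823028 to 38994892 counts. Levels are given as CPM, the count relative to a library size scaled with TMM (a method that sets most genes level between libraries), and fold changes are fitted log2 values with their standard error (SE). A gene was called when the quasi-likelihood test of edgeR gave a Benjamini-Hochberg adjusted p under 0.05 over all 14714 genes. Day 4 replicate 2 and day 8 replicate 3 stood apart from the other libraries of their days. On the first principal component they lay at 12.8 and 62.1, nearer to the day 0 libraries (-127 to -124) than the other libraries of day 4 (64.8 and 65.4) and of day 8 (85.5 and 85.8). Counts of members are therefore also given without both, a choice made after seeing the data. As to the labelled cell type, the precursor markers summed to 5030 to 5270 CPM at day 0, 1720 to 3350 CPM at day 4 and 1310 to 1830 CPM at day 8. Single precursor markers did not all follow the sum: of 10, 4 were lower and 3 (Ly6a, Cd34 and Dlk1) higher at day 4, and 6 were lower and 4 not called at day 8. All 10 adipocyte markers rose by day 4, and their sum went from 1370 to 1930 CPM at day 0 to 47800 to 71600 CPM at day 4 and 66200 to 68500 CPM at day 8.

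Most of the 42 genes fell, and they fell further at day 8 than at day 4. Between day 0 and day 4, 26 members were lower, 3 were higher and 13 were not called, with a median log2 fold change of -0.76. Over all tested genes 28.4% were lower and 29.8% higher, with a median of -0.02. Between day 0 and day 8, 38 members were lower and 2 higher, with a median of -1.94, against 33.5% and 34.2% of all tested genes. Between day 4 and day 8, 33 were lower and 0 higher, with a median of -1.02, against 17.1% and 14.7% of all tested genes. In this last comparison 46.2% of all called genes were higher, and 65.9% when scaled by library totals alone. The count of 0 members higher at day 8 than at day 4 in edgeR became 2 at an unadjusted p under 0.05, 1 with DESeq2 and 0 with limma-voom. The comparisons of day 4 and of day 8 with day 0 share the day 0 libraries. Without day 4 replicate 2 and day 8 replicate 3, 34 members were lower at day 4 than at day 0, 38 at day 8 than at day 0, and 34 at day 8 than at day 4. The shares of all tested genes lower in that fit were 33.3%, 35.2% and 19.9%, each also above the share with all libraries.

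The separation of libraries gave the same picture. All 3 day 4 libraries lay below all 3 day 0 libraries in 32 members, against 32.8% of all tested genes. The like counts were 38 members for day 8 under day 0, against 38.2%, and 36 members for day 8 under day 4, against 23.0%. In 27 of the 42 every day 0 library exceeded every day 4 library and every day 4 library exceeded every day 8 library, an order that 7.41% of all tested genes had. In footprint counts of bulk cultures, fewer dividing cells, less of each mRNA per dividing cell and fewer ribosomes on each mRNA cannot be told apart.

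**Figure D1:**
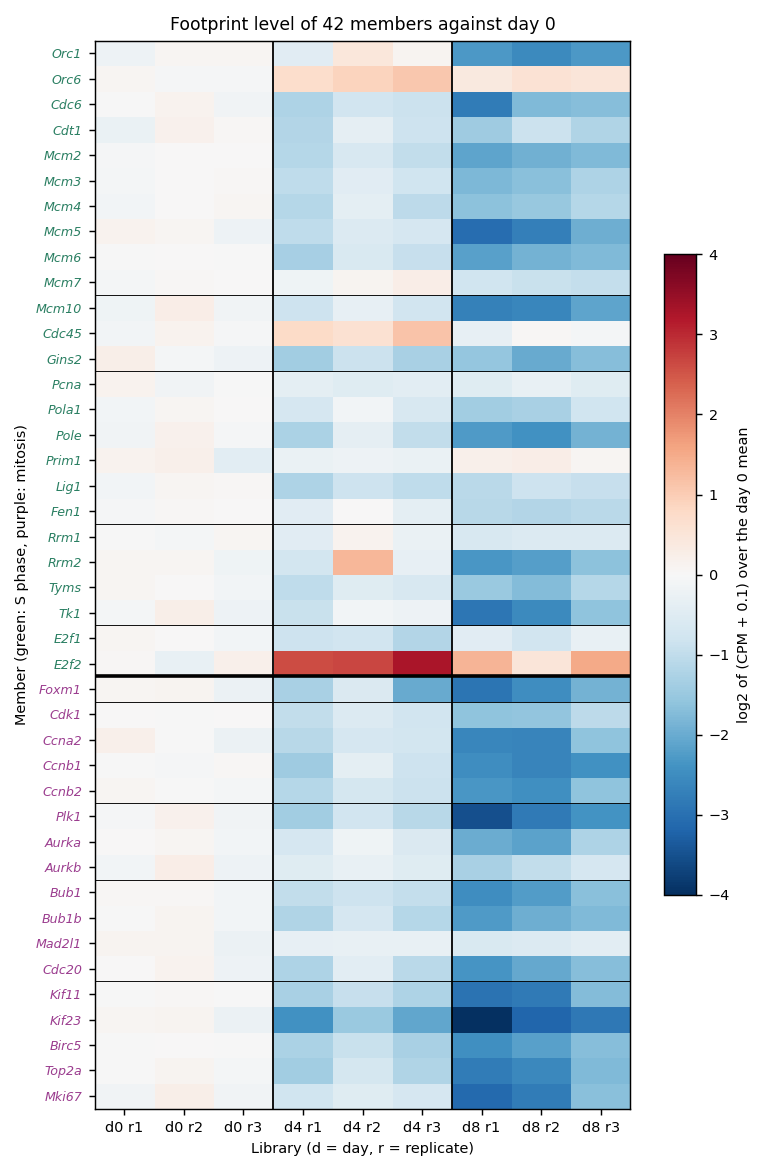
Heat map of the 42 members (rows, in order of role, S phase names in green and mitosis names in purple) in the 9 libraries (columns). Colour is the log2 of CPM plus 0.1 over the day 0 mean of the gene, with blue below and red above day 0. Most genes are blue at day 4 and deeper blue at day 8, while Orc6, Cdc45 and E2f2 are red at day 4.

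The mitotic genes had a deeper median fall than the S phase genes. At day 4 the median log2 fold change against day 0 was -0.65 over the 25 S phase genes and -0.89 over the 17 mitosis genes. At day 8 it was -1.43 and -2.15, a 2.69-fold fall for the median S phase gene and a 4.44-fold fall for the median mitosis gene. The distance between these medians was 0.24 at day 4, 0.72 at day 8 and 0.38 between day 4 and day 8. Without both of the libraries that stood apart it was 0.34, 0.84 and 0.57. Leaving out 1 library at a time, the distance ran from 0.22 to 0.39, from 0.67 to 0.84 and from 0.23 to 0.68. Of the S phase genes 13 were lower and 3 higher at day 4, and 21 and 2 at day 8. Of the mitosis genes 13 were lower and 0 higher at day 4, and all 17 were lower at day 8. The shares of all tested genes were 28.4% lower and 29.8% higher at day 4, and 33.5% and 34.2% at day 8. At day 4 also 0 mitosis genes were higher at an unadjusted p under 0.05 in edgeR, with DESeq2 or with limma-voom. These are descriptions of the members, and the difference between the classes was not tested.

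Seen by library, the summed level of the S phase genes stood at 668.4, 684.6 and 675.9 CPM at day 0, at 430.0, 683.0 and 506.7 CPM at day 4, and at 309.6, 331.4 and 360.3 CPM at day 8. The mitosis genes summed to 335.9, 359.2 and 311.2 CPM at day 0, to 153.1, 216.8 and 170.9 CPM at day 4 and to 66.2, 74.5 and 113.5 CPM at day 8. The ratio of the S phase sum to the mitosis sum depends on the lengths of the genes and is read here only between days. It ran from 1.91 to 2.17 at day 0, from 2.81 to 3.15 at day 4 and from 3.17 to 4.68 at day 8, with no overlap between days. Without Rrm1 and Rrm2 the S phase sum was 464.5 ± 11.3, 332.1 ± 48.9 and 212.4 ± 19.8 CPM (mean ± SD, n = 3 libraries per day). In the libraries that stood apart the fall was shallower: day 4 replicate 2 held the highest value of its day in 36 of the 42 members, against 40.0% of all tested genes, and day 8 replicate 3 in 33, against 41.6%. That library was the highest of day 8 in 17 of 17 mitosis genes and in 16 of 25 S phase genes.

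**Figure D2:**
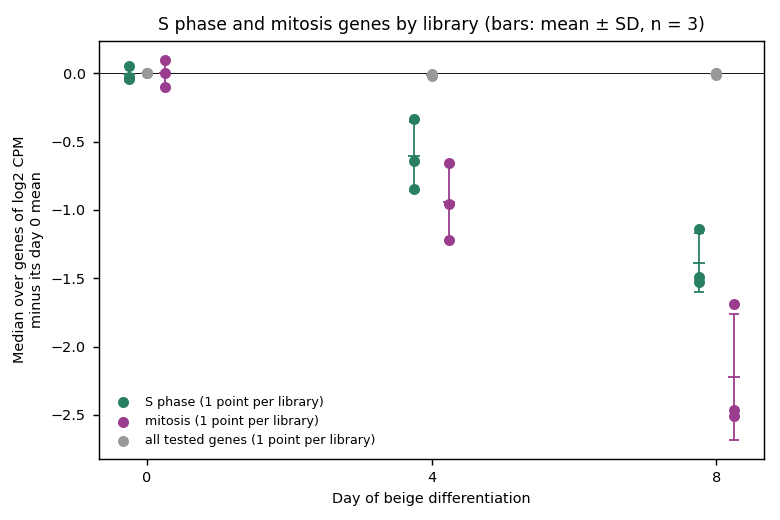
Median over the S phase genes (green), the mitosis genes (purple) and all tested genes (grey) of log2 CPM minus its day 0 mean, 1 point per library, by day; bars are mean ± SD of 3 libraries. The mitosis medians lie between -1.22 and -0.66 at day 4 and between -2.51 and -1.69 at day 8, and the S phase medians between -0.84 and -0.34 and between -1.53 and -1.14.

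Most genes that license origins fell, with 7 lower and 1 higher of 10 at day 4 and 9 lower and 1 higher at day 8. Over all tested genes 28.4% were lower and 29.8% higher at day 4, and 33.5% and 34.2% at day 8. Mcm2 (ENSMUSG00000002870), a subunit of the replicative helicase, stood at 48.7, 51.0 and 51.1 CPM at day 0, 22.8, 32.2 and 25.1 CPM at day 4 and 11.5, 13.2 and 14.8 CPM at day 8. The libraries of the 3 days did not overlap, and the log2 fold change was -0.91 ± 0.14 SE at day 4 and -1.94 ± 0.15 SE, adjusted p = 3.31e-06 at day 8. Mcm6 (ENSMUSG00000026355), another subunit of that ring, stood at 53.1, 55.1 and 53.8 CPM at day 0, 21.5, 35.6 and 28.5 CPM at day 4 and 11.9, 14.3 and 16.0 CPM at day 8. It kept the same order of days with no overlap (day 8 against day 0, -1.94 ± 0.18 SE, adjusted p = 1.09e-05). Mcm5 (ENSMUSG00000005410) stood at 27.5, 26.3 and 21.7 CPM at day 0, 12.3, 17.1 and 15.8 CPM at day 4 and 2.93, 3.72 and 6.41 CPM at day 8. Its fall was the deepest of the ring at day 8 (-2.53 ± 0.27 SE, adjusted p = 2.56e-05), while its call at day 4 (-0.74 ± 0.25 SE, adjusted p = 0.0272) was lost on leaving out day 0 replicate 1 or 2 (-0.66 and -0.71, adjusted p = 0.0898 and 0.0726) or day 4 replicate 1 or 3 (-0.61 and -0.77, adjusted p = 0.0913 and 0.0578).

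The 6 subunits of the ring work in equal numbers, yet their footprints did not all take the same course. Mcm3 and Mcm4 were lower, with log2 fold changes of -0.75 and -0.82 at day 4 and -1.55 and -1.43 at day 8. The further fall of Mcm4 between day 4 and day 8 was -0.61 ± 0.20 SE, adjusted p = 0.0441. This call ended when day 4 replicate 2 (-0.34), day 8 replicate 1 or 2 (-0.51 and -0.56) or any 1 of the day 0 libraries was left out (adjusted p between 0.0613 and 0.144). Upper quartile and library-total scaling ended the call too (-0.59 and -0.47, adjusted p = 0.0507 and 0.106). Mcm7 (ENSMUSG00000029730) stood at 16.8, 18.3 and 17.8 CPM at day 0, 15.8, 18.9 and 21.4 CPM at day 4 and 10.1, 9.54 and 9.07 CPM at day 8. It showed no call at day 4 (0.08 ± 0.13 SE, adjusted p = 0.587, and -0.04 and -0.07 with upper quartile and library-total scaling) and a fall at day 8 (-0.88 ± 0.13 SE, adjusted p = 0.000201). The Mcm7 gene overlaps Ap4m1, whose footprints went from 12.1 CPM at day 0 to 37.3 CPM at day 4 and 21.7 CPM at day 8. The strand setting of the count is not given in the sources used here, so reads where the genes overlap cannot be told apart.

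Cdc6 and Cdt1 encode the loaders that bring the ring to ORC. Cdc6 went from 3.66 ± 0.362 to 1.85 ± 0.323 and 0.842 ± 0.343 CPM (SD, n = 3), and Cdt1 from 13.2 ± 2.09 to 7.82 ± 2.32 and 5.90 ± 1.17 CPM. Both were lower at day 8 (-2.11 ± 0.32 SE, adjusted p = 0.000221 for Cdc6 and -1.16 ± 0.24 SE, adjusted p = 0.00157 for Cdt1). At day 4 both were called lower (-0.98 ± 0.30 SE, adjusted p = 0.0167 and -0.75 ± 0.23 SE, adjusted p = 0.0189). The Cdc6 call was lost without day 0 replicate 2 (adjusted p = 0.0558) or day 4 replicate 1 (adjusted p = 0.0593). The Cdt1 call was lost without day 0 replicate 2 or 3 (adjusted p = 0.0688 and 0.0552) or without day 4 replicate 1 or 3 (adjusted p = 0.0629 and 0.0604).

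The members of the origin recognition complex went opposite ways. Orc1, the subunit whose level is tied to the cell cycle, stood at 1.65, 2.04 and 2.04 CPM at day 0, 1.37, 2.64 and 2.09 CPM at day 4 and 0.307, 0.241 and 0.308 CPM at day 8. It showed no call at day 4 (0.09 ± 0.28 SE, adjusted p = 0.797, with values down to -0.14 on leaving out day 4 replicate 2 and -0.04 and -0.06 with upper quartile and library-total scaling), and its fall came between day 4 and day 8 (-2.82 ± 0.32 SE, adjusted p = 0.000469). Its day 8 levels rest on as few as 9 counts in a library. Orc6 (ENSMUSG00000031697), the smallest subunit, which is also known to act in cell division, stood at 25.7, 23.4 and 23.6 CPM at day 0, 39.9, 45.2 and 50.9 CPM at day 4 and 32.1, 36.2 and 33.9 CPM at day 8. Every later library exceeded every day 0 library, by 0.90 ± 0.11 SE, adjusted p = 8.47e-05 at day 4 and by 0.49 ± 0.11 SE, adjusted p = 0.00273 at day 8. It was lower at day 8 than at day 4 (-0.41 ± 0.11 SE, adjusted p = 0.0184), a call that ended on leaving out day 4 replicate 3 or day 8 replicate 1 (-0.32 and -0.38, adjusted p = 0.0649 and 0.073). Library-total scaling ended that call too (-0.27, adjusted p = 0.0858). The other ORC genes, named here after their values were seen, were each higher at day 8 than at day 0, with log2 fold changes of 0.87 for Orc2, 0.93 for Orc3, 0.51 for Orc4 and 1.41 for Orc5 (adjusted p = 0.000197, 0.000123, 0.000807 and 3.37e-05).

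**Figure D3:**
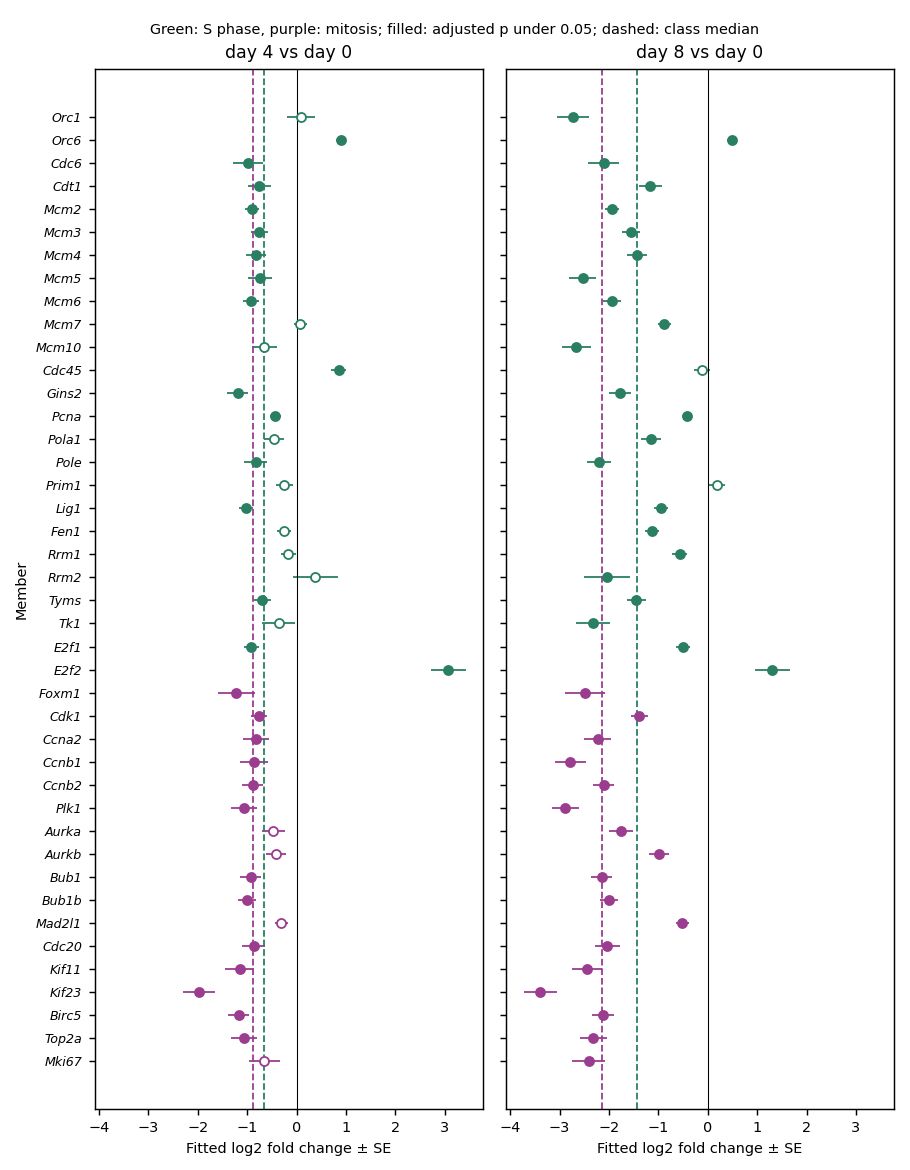
Fitted log2 fold change ± SE of each member at day 4 (left) and day 8 (right) against day 0, with S phase genes in green and mitosis genes in purple; filled circles passed an adjusted p of 0.05 in edgeR and dashed lines are class medians. Orc6 and E2f2 lie to the right of 0 with a call on both sides and Cdc45 at day 4 alone. Orc1, Mcm7 and Rrm2 at day 4 and Prim1 at day 8 lie to the right of 0 without a call. The deepest fall at day 8 is Kif23 at -3.39.

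Among the genes that switch the helicase on, Mcm10 and Gins2 fell and Cdc45 rose and came back. Mcm10 (ENSMUSG00000026669), which helps the helicase start to unwind, stood at 2.77, 3.71 and 2.81 CPM at day 0, 1.69, 2.45 and 1.78 CPM at day 4 and 0.391, 0.428 and 0.644 CPM at day 8. All day 4 libraries lay below day 0, though the difference was not called (-0.65 ± 0.26 SE, adjusted p = 0.052; -0.83, adjusted p = 0.0212 without day 4 replicate 2), and at day 8 it was -2.66 ± 0.29 SE, adjusted p = 3.05e-05. Gins2 (ENSMUSG00000031821), a subunit of GINS, stood at 10.4, 8.29 and 7.59 CPM at day 0, 3.26, 4.76 and 3.50 CPM at day 4 and 2.93, 2.11 and 2.63 CPM at day 8. It was lower at day 4 (-1.19 ± 0.21 SE, adjusted p = 9e-04) and at day 8 (-1.77 ± 0.22 SE, adjusted p = 6.19e-05).

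Cdc45 (ENSMUSG00000000028), which joins the MCM ring and GINS in the working helicase, stood at 9.90, 11.7 and 10.4 CPM at day 0, 18.0, 16.2 and 23.4 CPM at day 4 and 8.46, 11.0 and 10.1 CPM at day 8. The day 4 libraries exceeded those of both other days (0.85 ± 0.16 SE, adjusted p = 0.0015 against day 0 and -0.96 ± 0.16 SE, adjusted p = 0.00285 for day 8 against day 4), and day 0 and day 8 overlapped (-0.11 ± 0.16 SE, adjusted p = 0.574). The Cdc45 gene overlaps Ufd1, a cofactor of a protein-unfolding ATPase, which stood at 73.7 CPM at day 0, 123.2 CPM at day 4 and 109.8 CPM at day 8. Its part in the Cdc45 value was not tested.

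At the replication fork the members divided, with 3 of 6 lower at day 4 and 5 of 6 at day 8. The shares of all tested genes lower were 28.4% and 33.5%. Pole (ENSMUSG00000007080), the catalytic subunit of the leading-strand polymerase, stood at 14.1, 17.6 and 15.2 CPM at day 0, 6.43, 12.1 and 7.84 CPM at day 4 and 3.18, 2.86 and 4.14 CPM at day 8. It was lower at day 4 (-0.83 ± 0.23 SE, adjusted p = 0.0124) and again at day 8 (-2.20 ± 0.25 SE, adjusted p = 3.79e-05 against day 0). Fen1 (ENSMUSG00000024742), the nuclease that trims flaps of Okazaki fragments, stood at 16.7, 17.8 and 17.6 CPM at day 0, 12.8, 17.6 and 13.1 CPM at day 4 and 7.93, 7.67 and 8.15 CPM at day 8. It overlapped day 0 at day 4 without a call (-0.26 ± 0.14 SE, adjusted p = 0.13; -0.42, adjusted p = 0.00578 without day 4 replicate 2), and was lower at day 8 (-1.13 ± 0.14 SE, adjusted p = 6.74e-05). Pola1, the catalytic subunit of the polymerase that works with primase, went from 15.2 ± 0.912 to 11.1 ± 2.54 and 6.87 ± 1.58 CPM and was lower at day 8 (-1.15 ± 0.20 SE, adjusted p = 0.000589).

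The ligase, the clamp and a primase subunit were not called between day 4 and day 8. Lig1 (ENSMUSG00000056394), which joins Okazaki fragments, stood at 17.1, 19.3 and 18.9 CPM at day 0, 7.82, 10.4 and 9.08 CPM at day 4 and 8.60, 10.4 and 9.60 CPM at day 8. It was lower by day 4 (-1.02 ± 0.14 SE, adjusted p = 0.000172), and day 8 overlapped day 4 (log2 difference 0.07 ± 0.14 SE, adjusted p = 0.744). Pcna (ENSMUSG00000027342), the sliding clamp that holds the polymerases on DNA, stood at 20.8, 17.1 and 18.3 CPM at day 0, 14.4, 13.4 and 14.0 CPM at day 4 and 13.5, 15.1 and 13.4 CPM at day 8. The log2 fold change was -0.43 ± 0.11 SE at day 4 and -0.42 ± 0.11 SE at day 8 (adjusted p = 0.00856 and 0.00741), a smaller fall than the median of its class, and its pseudogene Pcna-ps2 held 31 to 53 counts per library. Prim1 (ENSMUSG00000025395), the primase subunit that lays the RNA primer, stood at 9.02, 9.32 and 5.99 CPM at day 0, 6.78, 7.07 and 6.66 CPM at day 4 and 9.27, 9.76 and 8.54 CPM at day 8. It was called in none of the 3 comparisons (adjusted p = 0.252, 0.372 and 0.0876), although every day 8 library exceeded every day 4 library, and without day 0 replicate 3 it was lower at day 4 (-0.42, adjusted p = 0.0329) and higher at day 8 than at day 4 (0.43, adjusted p = 0.0368).

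**Figure D4:**
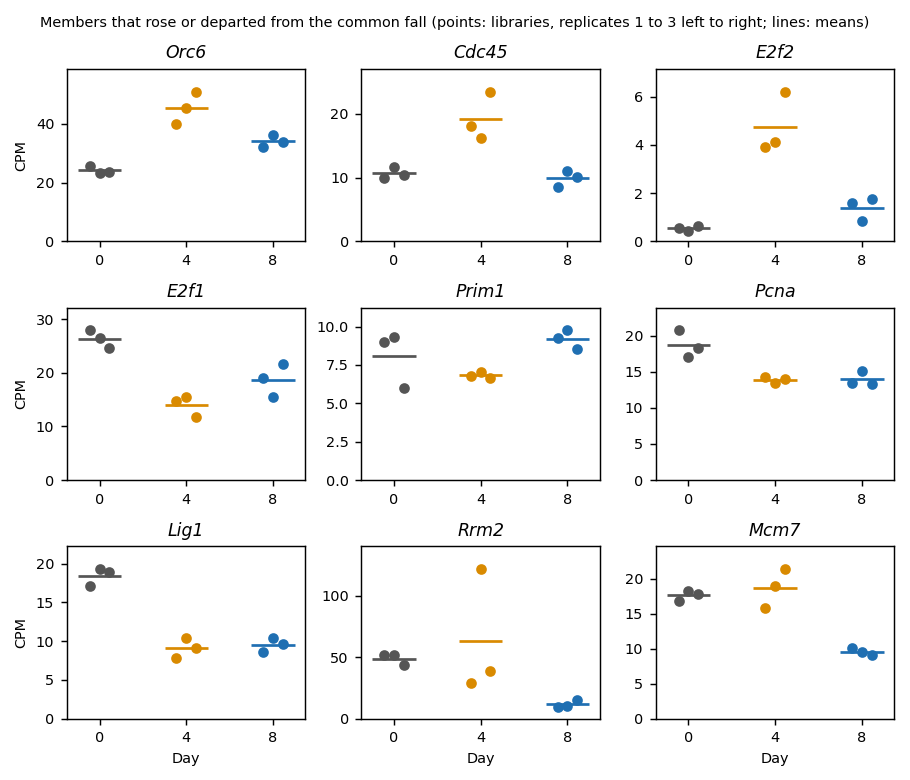
CPM of 9 S phase members in each library (points, replicates 1 to 3 from left to right at each day, grey for day 0, orange for day 4, blue for day 8) with the mean of each day as a line; each panel has its own axis from 0. Orc6, Cdc45 and E2f2 peak at day 4, E2f1 is lowest there, Pcna and Lig1 stay level after day 4, and Rrm2 has 1 high library at day 4.

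Of the 4 genes of deoxynucleotide supply 1 was lower at day 4 and all 4 at day 8, against 28.4% and 33.5% of all tested genes. Tyms (ENSMUSG00000025747), thymidylate synthase, stood at 15.7, 15.3 and 13.9 CPM at day 0, 7.42, 10.7 and 9.64 CPM at day 4 and 5.28, 4.41 and 6.75 CPM at day 8. It was lower at day 4 (-0.69 ± 0.18 SE, adjusted p = 0.00927) and at day 8 (-1.45 ± 0.19 SE, adjusted p = 9.54e-05), with no overlap between days. Tk1 (ENSMUSG00000025574), thymidine kinase, stood at 6.40, 8.08 and 5.91 CPM at day 0, 3.63, 6.33 and 5.95 CPM at day 4 and 0.838, 1.07 and 2.16 CPM at day 8. Day 4 overlapped day 0 (-0.36 ± 0.33 SE, adjusted p = 0.371), and day 8 lay below all other libraries (-2.32 ± 0.35 SE, adjusted p = 0.000256 against day 0).

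The subunits of ribonucleotide reductase, which makes deoxynucleotides from ribonucleotides, came apart. Rrm2 (ENSMUSG00000020649), the small subunit that cycling cells use, stood at 51.4, 51.3 and 43.5 CPM at day 0, 29.1, 122 and 38.9 CPM at day 4 and 9.69, 10.4 and 15.4 CPM at day 8. Day 4 replicate 2 had 4422 counts against 1380 or fewer in the other day 4 libraries, so the day 4 difference (0.38 ± 0.45 SE, adjusted p = 0.491) turned to -0.52 (adjusted p = 0.0393) without it. At day 8 Rrm2 was lower than at day 0 (-2.04 ± 0.47 SE, adjusted p = 0.00318) with no overlap. Rrm1, the large subunit, went from 163 ± 8.37 to 144 ± 32.4 and 109.5 ± 3.58 CPM, with -0.57 ± 0.15 SE, adjusted p = 0.00579 at day 8. For every 100 counts of Rrm1 there were 32.0, 32.9 and 25.3 of Rrm2 at day 0, 24.6, 67.3 and 28.9 at day 4, and 9.19, 9.34 and 13.9 at day 8. Day 8 lay below both other days in this ratio.

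Of the E2F activators, E2f2 was higher and E2f1 lower than day 0 at both later days. E2f2 (ENSMUSG00000018983) stood at 0.579, 0.433 and 0.662 CPM at day 0, 3.90, 4.13 and 6.20 CPM at day 4 and 1.59, 0.829 and 1.76 CPM at day 8. It rose by 3.07 ± 0.35 SE, adjusted p = 5.37e-05 at day 4, the largest rise of the 42, and stayed above day 0 at day 8 by 1.31 ± 0.35 SE, adjusted p = 0.00784, with no overlap between any 2 days. E2f1 (ENSMUSG00000027490) stood at 27.9, 26.6 and 24.6 CPM at day 0, 14.7, 15.4 and 11.7 CPM at day 4 and 19.1, 15.4 and 21.5 CPM at day 8. It was lower at day 4 (-0.92 ± 0.15 SE, adjusted p = 0.000532), and the day 8 libraries lay at or above the highest of day 4 and below all of day 0 (day 8 against day 0, -0.50 ± 0.15 SE, adjusted p = 0.0131). The step from day 4 to day 8 in E2f1, a log2 difference of 0.42 ± 0.15 SE, was not called (adjusted p = 0.0546). The day 8 call was lost without day 0 replicate 1 (-0.45, adjusted p = 0.0501) or day 8 replicate 2 (-0.36, adjusted p = 0.0603). E2f1 overlaps Necab3, which rose from 0.204 CPM at day 0 to 1.21 CPM at day 4 and 6.80 CPM at day 8, and the share of E2f1 reads that lie in the overlap was not tested.

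Every mitotic gene fell by day 8, by log2 values between -0.52 and -3.39. Foxm1 (ENSMUSG00000001517), the transcription factor of the group, stood at 5.48, 5.54 and 4.39 CPM at day 0, 2.04, 3.38 and 1.18 CPM at day 4 and 0.586, 0.829 and 1.32 CPM at day 8. The day 4 and day 8 libraries overlapped, since day 4 replicate 3 lay below day 8 replicate 3. Its fall at day 8 was -2.49 ± 0.40 SE, adjusted p = 0.000368. The calls at day 4 (-1.22 ± 0.38 SE, adjusted p = 0.0182) and between day 4 and day 8 (-1.27 ± 0.40 SE, adjusted p = 0.0369) depended on single libraries. The first was lost without day 0 replicate 1 or 2 or day 4 replicate 1 or 3 (adjusted p = 0.0547, 0.0529, 0.0542 and 0.0563). The second was lost without any 1 library other than day 4 replicate 3 and day 8 replicate 3 (adjusted p between 0.0522 and 0.124). Library-total scaling also ended the second (-1.14, adjusted p = 0.0579).

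CDK1, the kinase that starts mitosis, and its cyclins were lower at both steps in all 4 genes, against 5% of all tested genes. Cdk1 (ENSMUSG00000019942) stood at 37.6, 37.1 and 37.9 CPM at day 0, 18.9, 25.5 and 22.0 CPM at day 4 and 12.2, 12.6 and 18.1 CPM at day 8. The log2 fold change was -0.76 ± 0.16 SE at day 4 and -1.39 ± 0.17 SE, adjusted p = 5.34e-05 at day 8, with no overlap between days. The step from day 4 to day 8 (-0.63 ± 0.16 SE, adjusted p = 0.0174) lost its call on leaving out day 8 replicate 1 or 2 (-0.54 and -0.55, adjusted p = 0.069 and 0.0686). Ccnb1 (ENSMUSG00000041431), cyclin B1, stood at 2.62, 2.60 and 2.79 CPM at day 0, 0.93, 2.01 and 1.47 CPM at day 4 and 0.391, 0.347 and 0.42 CPM at day 8. Its day 4 call (-0.86 ± 0.28 SE, adjusted p = 0.0238) was lost when any 1 of the day 0 libraries or day 4 replicate 1 or 3 was left out (adjusted p = 0.0576, 0.0518 and 0.0665, and 0.0688 and 0.0657), while at day 8 it stood at -2.78 ± 0.32 SE, adjusted p = 4.02e-05. Ccnb2 (ENSMUSG00000032218), cyclin B2, stood at 17.0, 16.2 and 15.4 CPM at day 0, 7.36, 9.96 and 8.77 CPM at day 4 and 3.15, 2.89 and 5.21 CPM at day 8. It fell at both steps (-0.89 ± 0.21 SE, adjusted p = 0.00493 at day 4 and -2.11 ± 0.22 SE, adjusted p = 2.6e-05 at day 8) with no overlap. Ccna2, cyclin A2, which serves both S phase and mitosis, went from 17.4 ± 2.61 to 9.82 ± 1.57 and 3.72 ± 1.70 CPM and was lower at a log2 fold change of -2.23 ± 0.28 SE, adjusted p = 8.3e-05 at day 8. Its day 4 call (-0.82 ± 0.27 SE, adjusted p = 0.0239) was lost without day 0 replicate 1 or 2 (adjusted p = 0.09 and 0.0563) or day 4 replicate 1 (adjusted p = 0.0808).

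The mitotic kinases differed in depth of fall. Plk1 (ENSMUSG00000030867), polo-like kinase 1, which acts at centrosomes, kinetochores and the cleavage site, stood at 18.7, 22.1 and 17.8 CPM at day 0, 7.36, 11.4 and 9.08 CPM at day 4 and 1.62, 2.65 and 3.67 CPM at day 8. It fell to a log2 fold change of -1.07 ± 0.26 SE at day 4 and -2.88 ± 0.28 SE, adjusted p = 1.47e-05 at day 8, the second deepest fall of the 42. Aurka (ENSMUSG00000027496), the Aurora kinase of the spindle poles, stood at 12.6, 13.1 and 11.6 CPM at day 0, 7.73, 10.9 and 8.35 CPM at day 4 and 3.07, 2.73 and 5.21 CPM at day 8. It was below day 0 in every day 4 library without a call (-0.47 ± 0.23 SE, adjusted p = 0.111; -0.62, adjusted p = 0.0379 without day 4 replicate 2) and was lower at day 8 (-1.76 ± 0.24 SE, adjusted p = 0.000136). Aurkb (ENSMUSG00000020897), the Aurora kinase of the chromosomal passenger complex, stood at 7.89, 10.2 and 7.40 CPM at day 0, 6.08, 6.85 and 6.09 CPM at day 4 and 3.38, 4.25 and 5.32 CPM at day 8. Its fall at day 8 was the shallowest of the kinases (-0.98 ± 0.20 SE, adjusted p = 0.00157), and neither single step was called (-0.74, adjusted p = 0.0261 from day 4 to day 8 without day 8 replicate 3).

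Among the spindle checkpoint genes, which hold back anaphase until chromosomes are attached, Bub1b and Bub1 fell at both steps. Bub1b (ENSMUSG00000040084), the gene of BubR1, stood at 21.1, 23.4 and 20.2 CPM at day 0, 9.22, 13.5 and 9.67 CPM at day 4 and 4.44, 5.53 and 6.21 CPM at day 8. It stood at 50% of its day 0 level at day 4 and 25% at day 8 (fitted values, adjusted p = 0.000856 and 1.07e-05). Bub1 (ENSMUSG00000027379), a checkpoint kinase, stood at 7.80, 7.86 and 7.04 CPM at day 0, 3.78, 4.24 and 3.86 CPM at day 4 and 1.28, 1.52 and 2.30 CPM at day 8. It fell to a log2 fold change of -0.93 ± 0.21 SE at day 4 and -2.15 ± 0.22 SE, adjusted p = 2.12e-05 at day 8. Neither gene had libraries of different days overlapping. Cdc20 (ENSMUSG00000006398), which activates the anaphase-promoting complex and is what the checkpoint blocks, stood at 22.3, 24.4 and 19.1 CPM at day 0, 9.19, 16.5 and 10.2 CPM at day 4 and 4.21, 5.19 and 6.72 CPM at day 8. It fell to a log2 fold change of -0.87 ± 0.24 SE, adjusted p = 0.0101 at day 4 and -2.03 ± 0.25 SE, adjusted p = 6.3e-05 at day 8. Mad2l1, a checkpoint protein that binds CDC20, moved least of the mitotic genes, from 14.8 ± 2.01 to 11.9 ± 0.126 and 10.3 ± 0.736 CPM (-0.52 ± 0.13 SE, adjusted p = 0.00471 at day 8).

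The spindle motors and chromosome proteins had the deepest median among roles with more than 1 gene, -1.15 at day 4 and -2.41 at day 8. Kif23 (ENSMUSG00000032254), a kinesin of the central spindle needed for cell separation, stood at 14.5, 14.9 and 11.8 CPM at day 0, 2.50, 4.82 and 3.16 CPM at day 4 and 0.698, 1.44 and 1.79 CPM at day 8. It fell to a log2 fold change of -1.98 ± 0.32 SE, adjusted p = 0.000481 at day 4 and -3.39 ± 0.34 SE, adjusted p = 2.03e-05 at day 8, the deepest fall of the 42 in both, to 9.56% of day 0. Birc5 (ENSMUSG00000017716), survivin of the passenger complex, stood at 8.62, 8.79 and 8.53 CPM at day 0, 3.52, 4.57 and 3.44 CPM at day 4 and 1.51, 1.84 and 2.60 CPM at day 8. The log2 fold change was -1.17 ± 0.21 SE at day 4 and -2.12 ± 0.22 SE, adjusted p = 2.34e-05 at day 8, with day 0 apart from all later libraries. Top2a (ENSMUSG00000020914), the topoisomerase that untangles sister chromosomes, stood at 82.1, 88.6 and 78.2 CPM at day 0, 31.3, 51.0 and 36.0 CPM at day 4 and 12.0, 13.7 and 24.1 CPM at day 8. The log2 fold change was -1.07 ± 0.26 SE at day 4 and -2.32 ± 0.27 SE, adjusted p = 4.24e-05 at day 8. Kif11, the kinesin that pushes spindle poles apart, and Mki67, the proliferation marker that coats mitotic chromosomes, were at -2.44 ± 0.30 SE and -2.41 ± 0.33 SE at day 8 (adjusted p = 7.24e-05 and 0.000122). Mki67 was not called at day 4 (-0.65 ± 0.31 SE, adjusted p = 0.094; -0.64, adjusted p = 0.00614 without day 8 replicate 3).

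The timing of the fall varied among the genes. In 28 of the 42 the larger of the steps was a fall from day 4 to day 8 (16 of 25 S phase and 12 of 17 mitosis genes), against 18.1% of all tested genes. A total of 21 were called lower at both steps (8 S phase and 13 mitosis genes), against 5.00% of all tested genes. Another 5, all S phase genes, were lower at the first step and not called at the second, against 19.4% of all tested genes. The 12 other members called lower at the second step were 9 with no call at the first, against 6.38%, and Orc6, Cdc45 and E2f2, which were higher at the first, against 5.73%. The remaining 4, Prim1, Rrm1, Aurkb and Mad2l1, were called at neither step.

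Motif letters in the promoters differed between the classes, though the difference in shares was not tested. The letters were chosen because E2F sites are known from S phase genes, and CHR and CCAAT elements from mitosis genes. A difference between the classes was therefore likely in advance and is no independent support for the division. RefSeq promoter windows of GRCm38.p6, each from 250 bases before to 50 bases after a gene start, were matched by symbol for 36 members, 22 of S phase and 14 of mitosis. No window was listed for Mcm4, Gins2, Pole, Foxm1, Ccna2 and Aurkb. Windows were searched on both strands for the E2F letters TTTCCCGC, TTTGGCGC, TTTCGCGC and TTTGCCGC, for the CHR letters TTTGAA and for CCAAT. The E2F letters TTTCGCGC and TTTGGCGC can overlap on opposite strands. Genes with more than 1 start count once.

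The following windows, from 150 bases before to 30 bases after the start, 5′ to 3′ on the strand of the gene, show both kinds of promoter, with matches to any of these letters in capitals. Mcm6 and Orc1 are shown as falling S phase genes with E2F letters, Orc6 as a rising one with neither E2F nor CHR letters, Cdk1 as the mitotic gene with both, and Ccnb2, Kif23 and Cdc20 as mitotic genes with CHR and CCAAT.
Mcm6, minus strand, chr1:128359676-128359855: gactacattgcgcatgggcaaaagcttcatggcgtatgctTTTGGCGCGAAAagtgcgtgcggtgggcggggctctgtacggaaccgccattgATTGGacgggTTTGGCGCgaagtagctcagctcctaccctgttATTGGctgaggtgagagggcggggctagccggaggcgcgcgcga
Orc1, plus strand, chr4:108579304-108579483: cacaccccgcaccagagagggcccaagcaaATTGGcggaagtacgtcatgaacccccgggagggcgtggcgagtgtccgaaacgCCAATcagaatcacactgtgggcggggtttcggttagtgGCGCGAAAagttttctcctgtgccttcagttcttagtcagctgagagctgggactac
Orc6, plus strand, chr8:85299482-85299661: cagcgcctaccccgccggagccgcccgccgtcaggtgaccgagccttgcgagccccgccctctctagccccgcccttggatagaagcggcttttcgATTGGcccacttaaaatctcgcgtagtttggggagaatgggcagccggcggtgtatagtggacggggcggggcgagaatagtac
Cdk1, minus strand, chr10:69352883-69353062: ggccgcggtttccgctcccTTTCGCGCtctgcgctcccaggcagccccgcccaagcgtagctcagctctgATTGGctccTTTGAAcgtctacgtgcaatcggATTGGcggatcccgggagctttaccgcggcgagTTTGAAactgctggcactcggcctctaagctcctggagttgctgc
Ccnb2, minus strand, chr9:70421525-70421704: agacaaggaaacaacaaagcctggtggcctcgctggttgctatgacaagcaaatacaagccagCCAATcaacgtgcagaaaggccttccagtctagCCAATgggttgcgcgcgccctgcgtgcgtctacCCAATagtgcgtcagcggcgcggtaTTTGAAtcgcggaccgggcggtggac
Kif23, minus strand, chr9:61946770-61946949: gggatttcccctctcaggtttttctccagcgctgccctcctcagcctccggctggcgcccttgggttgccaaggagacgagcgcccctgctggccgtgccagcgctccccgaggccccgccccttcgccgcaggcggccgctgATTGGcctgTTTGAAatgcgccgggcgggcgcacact
Cdc20, minus strand, chr4:118437314-118437493: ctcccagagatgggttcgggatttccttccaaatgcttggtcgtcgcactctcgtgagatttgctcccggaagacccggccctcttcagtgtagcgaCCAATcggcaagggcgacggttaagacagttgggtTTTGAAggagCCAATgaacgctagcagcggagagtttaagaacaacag

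In these windows TTTGAA lies close to the start in Ccnb2, Kif23, Cdc20 and Cdk1, with CCAAT or its reverse ATTGG before it in each. The E2F letters were found in 10 of 22 S phase genes (45.5%) and in 1 of 14 mitosis genes (7.14%), Cdk1, against 4.65% of the 10806 tested genes with a window. They stood in Orc1, Cdc6, Cdt1, Mcm3, Mcm5, Mcm6, Mcm7, Pola1, Lig1 and E2f2. The CHR letters were found in 10 of 14 mitosis genes (71.4%) and in 4 of 22 S phase genes (18.2%), Mcm2, Cdc45, Fen1 and E2f2, against 14.5% of the tested genes. CCAAT stood in 12 of 14 mitosis genes (85.7%) and 15 of 22 S phase genes (68.2%), against 42.8%. Both CHR letters and CCAAT were present in 10 of 14 mitosis genes and 3 of 22 S phase genes (71.4% and 13.6%), against 7.20%. Over all 32851 windows of this length the shares were 2.26% for E2F, 17.9% for CHR and 37.4% for CCAAT. With only the 250 bases before the start, the CHR share of the mitosis genes was 42.9% against 13.0% of tested genes, and the E2F share of the S phase genes 27.3% against 3.86%.

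Members with and without the letters overlapped in their changes. At day 8 against day 0 the median log2 fold change was -1.39 over the 11 members with E2F letters (10 lower and 1 higher), -2.01 over the 14 with CHR letters (12 lower and 1 higher) and -1.45 over the 13 with neither (11 lower and 1 higher). E2f2 and Cdk1 count in both of the first sets, and E2f2 is the higher gene in each. A match is a description of letters in a window and not a bound site.

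**Figure D5:**
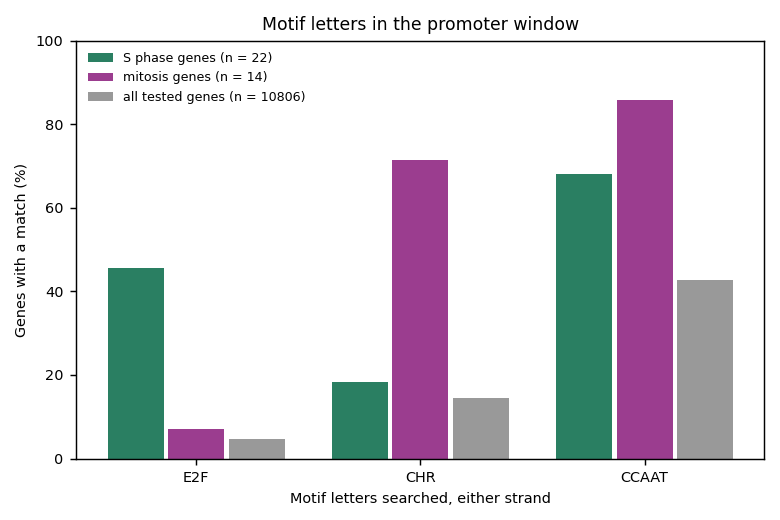
Share of genes (%) with the E2F, CHR or CCAAT letters in the RefSeq promoter window, for S phase genes (green, n = 22), mitosis genes (purple, n = 14) and all tested genes with a window (grey, n = 10806). E2F letters reach 45.5% in the S phase genes and CHR letters 71.4% in the mitosis genes, while CCAAT is frequent in both.

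Lists of other genes of the same machinery were set beside the 42. Over all tested genes 28.4% were lower and 29.8% higher at day 4, and 33.5% and 34.2% at day 8. Of 61 other mitosis genes 38 were lower and 2 higher at day 4, and 56 lower and 2 higher at day 8, with medians of -0.82 and -1.77. Tacc3, a spindle protein, and Espl1, separase, both stood at -1.77 at day 8 (adjusted p = 1.54e-05 and 2.31e-05). The 2 that rose were Pttg1, securin, from 24.2 to 45.7 and 147 CPM (2.60 ± 0.17 SE, adjusted p = 1.46e-06), and the kinetochore gene Zwint (0.84 ± 0.11 SE, adjusted p = 7.9e-05), which was named after its value was seen. Of 50 other replication genes 18 were lower and 11 higher at day 4, and 25 lower and 12 higher at day 8, with medians of -0.28 and -0.35. Their day 8 median was shallower than the -1.43 of the 25 S phase members. Dbf4, the activator of the kinase that fires origins, fell to a log2 fold change of -2.19 ± 0.20 SE, adjusted p = 9.55e-06 at day 8, and Dnmt1, the maintenance DNA methyltransferase, had -1.77 ± 0.17 SE, adjusted p = 1.26e-05. Gmnn, geminin, which blocks CDT1 from licensing origins, rose from 5.11 to 16.4 and 27.7 CPM (2.44 ± 0.23 SE, adjusted p = 1.37e-05).

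Regulators upstream of the 42 genes were called in both directions, as were all tested genes, of which 28.4% were lower and 29.8% higher at day 4 and 33.5% and 34.2% at day 8. Their counts were not tested against these shares. Of 13 genes of the DREAM and RB repressors 4 were higher and 1 lower at day 4, and 5 and 2 at day 8. Rb1, the retinoblastoma protein, rose from 15.8 to 59.5 and 80.4 CPM (2.35 ± 0.15 SE, adjusted p = 1.62e-06), Lin37 of the DREAM core rose (0.86 ± 0.15 SE, adjusted p = 0.000632) and Tfdp1, the partner of E2F proteins, fell (-0.73 ± 0.12 SE, adjusted p = 0.000486). Of 8 CDK inhibitors 3 were higher and 4 lower at day 4, and 3 and 3 at day 8. Cdkn2c (p18) rose from 20.5 to 99.1 and 109 CPM (2.41 ± 0.20 SE, adjusted p = 5.98e-06) and Cdkn2d (p19) by 1.18 ± 0.25 SE, adjusted p = 0.00208. Cdkn2a, whose locus encodes p16 and ARF, fell to a log2 fold change of -1.33 ± 0.19 SE, adjusted p = 0.000193. Of 9 G1 cyclins and kinases 4 were higher and 1 lower at day 4, and 2 and 3 at day 8. Cdk4 fell (-1.47 ± 0.19 SE, adjusted p = 7.82e-05), cyclin D2 (Ccnd2) fell (-0.71 ± 0.13 SE, adjusted p = 0.000823) and cyclin E1 (Ccne1) rose (0.98 ± 0.15 SE, adjusted p = 0.000282).

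Replication-dependent histone genes, whose mRNAs are made in S phase, were lower in 26 and higher in 6 of 58 tested at day 4, and lower in 39 and higher in 6 at day 8, with medians of -0.54 and -1.06. The shares of all tested genes were 28.4% lower and 29.8% higher at day 4, and 33.5% and 34.2% at day 8. H2bc18, H4c11 and H2ac4 stood at -1.87, -1.70 and -1.77 at day 8 (adjusted p = 9.02e-06, 1.41e-05 and 1.51e-05). These genes are near-identical copies, so reads may be split between them and each value is uncertain.

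Some markers of other cell types fell between day 0 and day 8. All tested genes had shares of 28.4% lower and 29.8% higher at day 4, and 33.5% and 34.2% at day 8. Of 9 tested macrophage markers edgeR called 0 lower at day 4 (1 at an unadjusted p under 0.05) and 5 at day 8, and the 12 listed summed to 64.5 to 131 CPM at day 0, 71.7 to 101 CPM at day 4 and 18.7 to 56.2 CPM at day 8. Lyz2 stood at 41.5, 27.4 and 8.86 CPM at days 0, 4 and 8 and Ptprc at 16.9, 15.7 and 13.8 CPM, while Cd163, Fcgr1 and Itgam had at most 10 counts in any library. Of 7 tested endothelial markers 1 was lower at day 4 and 4 at day 8, where 1 was higher, and the 10 listed summed to 21.5 to 29.8, 7.08 to 21.8 and 5.11 to 9.88 CPM. Tek and Kdr stood at 15.8 and 3.53 CPM at day 0 and 3.08 and 0.51 CPM at day 8, and Cldn5, Vwf and Tie1 had at most 10 counts in any library. The lymphocyte markers summed to 14.4 to 19.9 CPM in all libraries with 0 of 5 called by edgeR in any comparison and 0 at an unadjusted p under 0.05. The mural and smooth muscle markers summed to 95.3 to 135, 149 to 178 and 151 to 173 CPM. Single markers of this list did not follow the sum. Of 8, 2 were lower and 2 higher at day 4, and 2 and 3 at day 8, with median log2 fold changes of -0.65 and -0.62. The mesothelial and epithelial markers summed to 29.4 to 48.4, 37.9 to 88.5 and 30.7 to 33.4 CPM. Of 3 tested, edgeR called 1 lower at each later day. The part of these cells in the fall of the 42 genes was not tested.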

How the data were processed

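The deposited values are raw counts of ribosome footprints per Ensembl gene, 1 column per library. Per the submitters' processing notes, the authors trimmed reads with cutadapt, aligned them to GRCm39 with HISAT2 and made the counts with featureCounts; for the tool versions, the strand setting and reads that map to several places, nothing is given in the sources used here. Counts of 55359 genes were filtered with filterByExpr (minimum count 10), scaled with TMM and tested with edgeR 4.0.16 (quasi-likelihood test, group as the only term, all 9 libraries in 1 fit) in R 4.3.3, with Benjamini-Hochberg adjustment over 14714 genes. The SE comes from the quasi-likelihood F statistic, and n is 3 libraries per day.

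The members, their roles, the other gene lists and the tests were chosen with earlier results of these data known. Values in every library are given, per role, for at most 3 members that rank first by adjusted p at day 8 against day 0, for members called against the direction of most called members of their class, and for members with a higher mean at day 8 than at day 4; Mcm7 and Orc1 were added after their values were seen. From each other list up to 3 genes with the smallest adjusted p were named, and for other cell types the 2 with the highest mean CPM. Replicates of a day differed by more than sampling noise (chi-square per degree of freedom of at least 15.7), so each counts as 1 sample.

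Alternatives changed the scaling, the filter, the test (DESeq2 1.42.0 and limma-voom with limma 3.58.1), the libraries in the fit and the promoter window. On simulated data with 200 changed genes, 4-fold changes were recovered in 90% to 97% and 2-fold changes in 67% to 73%. Far more genes were called in the data, 8563 at day 4 against day 0, and genes of the lowest mean CPM were not changed. These rates therefore need not hold for the data. Levels per length were not computed, so ratios of counts between genes or lists are read only between days, not as differences in level. Of the members 12 overlap another coding gene and 4 have a named pseudogene, so their counts are less certain. Orc1 overlaps Prpf38a (23.25, 29.5 and 29.79 CPM at days 0, 4 and 8), Fen1 overlaps Tmem258 (83, 86.36 and 106.3 CPM) and Aurka overlaps Cstf1 (42.05, 70.79 and 77.68 CPM). Other partners fell, such as Exosc9 at Ccna2 (47.1, 41.75 and 35.59 CPM) and Elovl1 at Cdc20 (122.5, 107.6 and 88.99 CPM). The part of these partners in the members' values was not tested.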

Additional observations from a re-analysis of the deposited data

How the results depend on the processing

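Most fold changes of the 42 single genes kept their direction and their side of the threshold over the alternatives. This held for 729, 795 and 740 of the values recomputed at day 4 against day 0, day 8 against day 0 and day 8 against day 4. The direction reversed in 9, 1 and 6. With the direction kept, a call was lost in 22, 2 and 36 and gained in 38, 0 and 16. Upper quartile and library-total scaling moved the median of all tested genes at day 4 against day 0 to -0.144 and -0.172, and at day 8 against day 4 the latter moved it to 0.121, with 65.9% of calls higher against 46.2%. They put the S phase median at day 4 at -0.78 and -0.80, and that at day 8 at -1.53 by the upper quartile. Library totals put the S phase median of day 8 against day 4 at -0.73, with 2 members higher, both of S phase, where 1 was higher by the upper quartile, with the stricter filter and by DESeq2. At day 4 against day 0 Orc1 turned to -0.04 and -0.06 and Mcm7 to -0.04 and -0.07 under these scalings. Pcna at day 8 against day 4 was -0.00 without the low-count filter. Without day 4 replicate 2 and day 8 replicate 3 together the S phase median was -0.80 at day 4 and -1.58 at day 8, Orc1 stood at -0.14 and Rrm2 at -0.51 at day 4, and 5481 genes were called between day 8 and day 4.

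Leaving out 1 library at a time, the S phase median ranged from -0.80 to -0.50 at day 4, from -1.58 to -1.31 at day 8 and from -0.96 to -0.71 between day 4 and day 8, and the mitosis median of that last step from -1.62 to -1.06. Members lower ranged from 20 to 32, 37 to 38 and 26 to 34, and members higher at day 8 against day 4 from 0 to 1. At day 4 Orc1 ranged from -0.14 to 0.31, Mcm7 from -0.02 to 0.20 and Rrm2 from -0.52 to 0.72. Cdc45 at day 8 ranged from -0.18 to 0.00. Pcna and Lig1 at day 8 against day 4 ranged from -0.06 to 0.03 and from -0.03 to 0.17. Genes called between day 4 and day 8 ranged from 2706 (without day 8 replicate 1; 2760 without replicate 2) to 4899. The cause of these shifts was not tested.

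A block for the replicate number gave 26, 38 and 32 members lower and 8290, 9722 and 4079 genes called. Same-numbered libraries of different days correlated between -0.20 and 0.19 in their deviations from the group means, and differently numbered ones between -0.30 and 0.31. With 3 libraries per day these values cannot decide whether the numbers pair the libraries. The step from day 4 to day 8 in Foxm1 lost its call under the block (-1.21, adjusted p = 0.0689). Levels per length were planned and not run, since no table of coding lengths was used here. Members such as Orc1 and Ccnb1 at day 8 rest on few counts, which limits their precision.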
